A study of Mus musculus with 10 samples.

Results

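The genes described here make fatty acids, join them to glycerol and store the resulting triglyceride in lipid droplets. A list of 40 mouse genes was taken by symbol, from the enzymes that supply acetyl-CoA to the proteins that coat the droplet, and all 40 were found among the 55359 genes of the deposited table. The list follows the known role of each gene. Gene expression was measured by strand-specific RNA sequencing of 10 orthotopic tumors grown from KPC K8484 cells, a mouse pancreatic cancer line that carries Pdx1-Cre and here also luciferase. The cells were injected into the pancreas of immunocompetent C57BL/6 mice (the C57BL/6 J strain in the methods) of 10 weeks of age, with equal numbers of males and females according to the methods. In the normoglycemic group (CTRL, n = 5) the mice drank regular water, and in the D30 group (n = 5) they drank 30% dextrose water, for 14 days. All tumors come from the same cell line, which is therefore the only tumor genotype in the comparison, and the labels call the tumors PDX although they give KPC K8484 cells as the source. Tumors are named here by the letter and number of their column (N for CTRL, T for D30), since the columns could not be tied to single animals, and neither the sex of the host nor whether each tumor came from an animal of its own is given per column. P values therefore measure the spread between these tumors.

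Fatty acid synthesis starts in the cytosol, where citrate or acetate is turned into acetyl-CoA, acetyl-CoA is carboxylated to malonyl-CoA, and fatty acid synthase builds palmitate from both. Elongases and desaturases then lengthen the chain and add double bonds. Acyl chains are placed on glycerol 3-phosphate in a series of steps that ends with phosphatidic acid, lipins remove its phosphate to give diacylglycerol, and a last acyltransferase makes triglyceride, which is packed into droplets coated by perilipins. A second route starts from monoacylglycerol and is best known from the absorption of dietary fat in the intestine. In liver and adipose tissue the transcription factors SREBP-1c and ChREBP raise many of the chain-building genes when insulin and glucose are high, and pancreatic tumors are known both to make fatty acids and to take them up from their surroundings.

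The question of the comparison was which steps of this pathway differed in tumors of mice given dextrose water. In D30 tumors 3 genes of glycerolipid assembly were higher by limma, the main test, and no gene of chain synthesis passed it. Mogat2, the monoacylglycerol acyltransferase, was 3.46-fold higher by the ratio of group means, Lpin3, a phosphatidic acid phosphatase, 2.55-fold, and Dgat2, a diacylglycerol acyltransferase, 2.20-fold. These 3 genes passed an adjusted p of 0.05 by limma on log2(normalized count + 1), which is called below a rise, and 0 members passed in the other direction. Of all 24560 genes tested, 1.4% passed as higher and 1.36% as lower in D30. At these shares a list of 23 genes, the number in chain synthesis, would often hold 0 calls. The 0 members called lower stand beside 9 members with an unadjusted p under 0.05 in either direction, of which 3 were lower, where 17.3% of all genes tested had such a p. edgeR on recovered reads also called 3 members, all higher, where it called 2.67% of the genes it fitted as higher. DESeq2 called 7, all higher, where it called 5.08% of the genes it tested as higher. Among its 7 were Fads2 and Fads3, which are genes of chain synthesis, with DESeq2 adjusted p of 0.0422 and 0.0432. Without tumor T4, which is described below, limma called 4 members, all higher, and 3.32% of all genes as higher. Without tumor T5 it called 2 members, both higher, and 864 of all genes in either direction, against 678 with all tumors.

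The direction of the genes is given by stage, without a test of the difference between stages. Of the 23 genes of chain synthesis, 5 had a log2 fold change above 0 and 18 below 0, with a median of -0.17. Of the 17 genes of glycerolipid assembly and droplets, 12 were above 0 and 5 below, with a median of 0.22. Over all genes tested the median was -0.06, and over all 40 members it was -0.08, with 17 above and 23 below 0. Without T4, chain synthesis had 7 genes above and 16 below 0 with a median of -0.14, and assembly and droplets 13 above and 4 below with a median of 0.26. Without T5 the contrast was smaller. Chain synthesis then had 8 genes above and 15 below 0 with a median of -0.13, and assembly and droplets 11 above and 6 below with a median of 0.17.

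**Figure D1:**
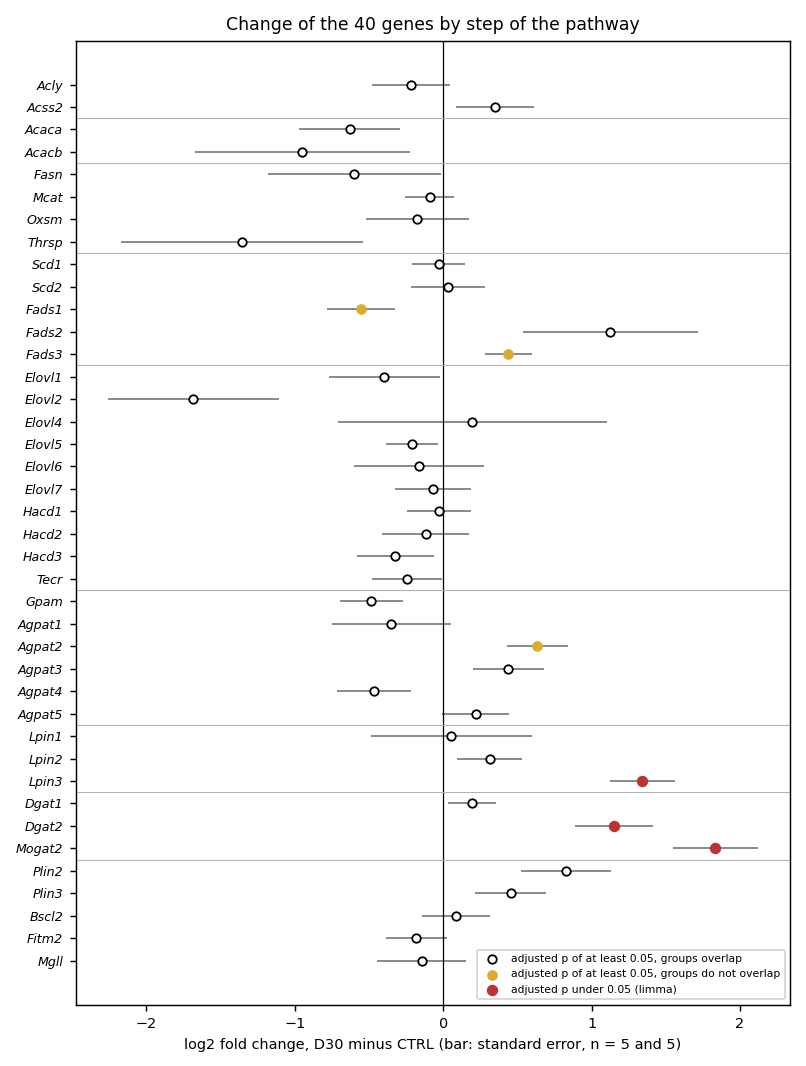
Log2 fold change of each of the 40 genes (horizontal axis, D30 minus CTRL; bars show the standard error, 5 tumors per group), ordered by step of the pathway from top to bottom. The 3 filled red points, Lpin3, Dgat2 and Mogat2, are the genes with a limma adjusted p under 0.05. All lie in the lower part of the plot, among the genes of glycerolipid assembly.

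Depth was similar in all tumors, with 29192261 to 42122304 reads recovered from the deposited values. Fewer genes had a read in T5, 20482, than in the other tumors, which had 23446 to 25912. The part of this in the values of T5 was not tested. Tumor T4 stood apart from the other D30 tumors in these genes: it had the lowest value of all 10 tumors in 15 of the 40 members, ties left out, and the highest in 10. Tumor T5 was the lowest in 7, all of them genes of chain synthesis, and among the CTRL tumors N1 was the lowest in 5. In N1 and T4 the deviation of each gene from the other tumors fell with the GC content of its transcript (Spearman's rho across 12200 genes of -0.54 and -0.39), in T7 it rose (0.36), and genes are not independent replicates. With the length of the transcript, rho was -0.39 in T4, -0.35 in T7, -0.20 in N1 and 0.42 in N5. In the other tumors it was -0.06 to 0.23. The part of transcript length in the values of the members was not tested. Summed counts of markers of several cell types also differed between the groups. The summed normalized counts of 6 epithelial markers lay between 193300 and 307900 in CTRL and between 312200 and 423500 in D30, without overlap. However, 0 of the 6 genes passed the test and 1 of them, Epcam, was lower. Krt8, Krt18 and Krt19 made up most of this sum. The sum of 4 endothelial markers was 9483 to 16350 in CTRL and 3623 to 8094 in D30, with 1 gene called lower. That gene, Cdh5, made up most of the sum, with a mean of 11945 normalized counts in CTRL and 4437 in D30. Another of the 4, Tek, had 655 and 692 in T1 and T7, above the CTRL maximum of 470. In T2, T4 and T5 it had 104, 28.9 and 12.6, below the CTRL minimum of 134. The sum of 6 macrophage markers, mostly Mrc1 and C1qa, was 12740 to 19760 in CTRL and 7856 to 14130 in D30, with 2 called lower. However, 1 of the 6, Cd68, had a log2 fold change above 0 (0.33, SE 0.20, limma adjusted p = 0.43). The sum of 5 genes listed as hepatocyte markers was 1484 to 3560 in CTRL and 468 to 1228 in D30, with Alb and Ttr called lower. Most of it was Ttr, with a mean of 2235 normalized counts in CTRL and 756 in D30, while Alb had 35.0 and 0.23. Whether the tumors held hepatocytes was not tested. The sum of 5 T cell markers was 231 to 480 in CTRL and 150 to 223 in D30, with 0 called. All 6 fibroblast markers had a log2 fold change below 0, with a median of -0.86, and 7 of 8 acinar markers did, with a median of -4.67 and sums that ran from 274 to 65030 in the CTRL tumors and from 144 to 6042 in the D30 tumors. Of these fibroblast and acinar genes 0 were called. The part of the cell mixture in the results below was not tested. In bulk tumors more cells of a type and more RNA per cell cannot be told apart.

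At the entry to the pathway, Acly and Acss2 supply cytosolic acetyl-CoA from citrate and from acetate. Neither passed the test. Acss2 had the smaller p, with normalized counts of 627, 586, 668, 687 and 695 in CTRL (N1, N2, N4, N5 and N6) and of 1385, 1041, 468, 703 and 829 in D30 (T1, T2, T4, T5 and T7). Thus 4 of the D30 tumors were above every CTRL tumor and T4 was below all of them, and the log2 fold change was 0.35 (SE 0.26, limma adjusted p = 0.53). Without T4 it was 0.56 (adjusted p = 0.11). Acss2 shares exon sequence with Acss2os, Ggt7 and Gss on the other strand, and whether reads were counted by strand is not given in the sources used here. Acly was the more abundant of the pair, at 1743 ± 189 normalized counts per kb of exon in CTRL and 1589 ± 574 in D30 (SD, n = 5). In T4 its normalized count was 3980, against 7233 to 12155 in the other D30 tumors and 7680 to 10155 in CTRL, and its log2 fold change was -0.22 (SE 0.26, limma adjusted p = 0.72).

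Taken as a ratio within each tumor, which does not depend on the scaling of that tumor, Acly relative to Acss2 was lower in every D30 tumor. The log2 ratio was 3.81 ± 0.20 (SD, n = 5) in CTRL and 3.24 ± 0.20 in D30, with ranges of 3.61 to 4.10 and 3.08 to 3.53 that did not overlap. The exact permutation p was 0.00794, the smallest that 5 tumors against 5 can give, and 0.0635 after Benjamini-Hochberg adjustment over the 8 ratios compared, so it did not pass.

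The acetyl-CoA carboxylases Acaca and Acacb make malonyl-CoA, the former in the cytosol for synthesis and the latter at mitochondria. Acaca had normalized counts of 1298, 1995, 1807, 2047 and 1846 in CTRL and of 2155, 1548, 477, 885 and 1412 in D30. The groups overlapped, with T1 the highest and T4 the lowest of all tumors, and the log2 fold change was -0.63 (SE 0.34, limma adjusted p = 0.37). Acaca was the more abundant gene of this step, at 105 ± 17.4 normalized counts per kb in CTRL and 75.9 ± 37.7 in D30 (SD, n = 5). Acacb was measured at 16.8 to 49.3 normalized counts in CTRL and 1.16 to 36.7 in D30, where T4 had 1 read (log2 fold change -0.95, SE 0.72, limma adjusted p = 0.54).

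Fasn, the enzyme that builds palmitate, did not pass the test and varied widely within both groups. In CTRL its normalized counts were 3858, 9669, 9565, 9954 and 8808, and in D30 they were 12605, 8747, 958, 3889 and 9552. N1 was low among the CTRL tumors and T4 and T5 among the D30 tumors, while the other 7 tumors lay within 8747 to 12605. The log2 fold change was -0.60 (SE 0.58, limma adjusted p = 0.65), and without T4 it was 0.01 (adjusted p = 0.99). Per kb of exon Fasn was the highest of the synthase group, at 765 ± 234 in CTRL and 653 ± 426 in D30 (SD, n = 5). Mcat and Oxsm, which serve fatty acid synthesis inside mitochondria, had log2 fold changes of -0.09 and -0.17 (limma adjusted p of 0.83 and 0.85). Mcat was steady, with 787 to 840 normalized counts in CTRL and 604 to 850 in D30, and Oxsm ranged from 501 to 695 and from 179 to 822, with the lowest value in T5. Thrsp, a nuclear and cytosolic protein associated with lipogenesis in liver and fat, was nearly absent: its normalized counts were 3.16, 18.1, 33.8, 3.54 and 11.98 in CTRL and 1.03, 4.58, 9.25, 0 and 11.7 in D30. These are 37 reads at most in any tumor, the groups overlapped, and the log2 fold change of -1.36 (SE 0.81) had a limma adjusted p of 0.43. The highest Thrsp value was in N4, the tumor with the highest sum of adipocyte markers.

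The desaturases introduce double bonds, Scd1 and Scd2 in saturated chains and Fads1 and Fads2 in polyunsaturated chains, while Fads3 acts on sphingoid bases. Scd2 was the most abundant of the 40 members per kb of exon, with 6993 ± 1133 normalized counts per kb in CTRL and 7343 ± 2113 in D30 (SD, n = 5). Scd1 followed among the desaturases with 2874 ± 368 and 2825 ± 430. Their log2 fold changes were 0.03 (SE 0.25) and -0.03 (SE 0.18), with limma adjusted p of 0.97 and 0.96. Scd2 made up 70.7% ± 2.29 of the summed Scd1 and Scd2 level per kb in CTRL and 71.2% ± 7.90 in D30 (SD, n = 5), with the lowest share, 58.3%, and the highest, 78.3%, both in D30 tumors.

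Fads1 and Fads3 separated the groups without passing the test. For Fads3 the normalized counts were 3976, 4726, 5729, 5413 and 5133 in CTRL and 6652, 6467, 6260, 6848 and 7430 in D30, so that every D30 tumor was above every CTRL tumor. This gave a log2 fold change of 0.44 (SE 0.16, limma adjusted p = 0.177), and by DESeq2 the adjusted p was 0.0432. Fads1, the delta-5 desaturase, had 4804, 6022, 5336, 6012 and 5773 in CTRL and 4514, 4779, 2100, 3634 and 4742 in D30. Every D30 tumor was lower, the closest pair being T2 at 4779 and N1 at 4804, and the log2 fold change was -0.56 (SE 0.23, limma adjusted p = 0.23). In total 5 members lay higher in D30 without overlap of the groups (Fads3, Agpat2, Lpin3, Dgat2 and Mogat2) and 1 lower (Fads1), where 2.87% and 3.32% of all genes tested did so. Without T4, 9 members were higher and 4 lower without overlap, where 5.71% and 6.42% of all genes tested were.

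Fads2, the delta-6 desaturase that precedes Fads1 in the same route, divided the D30 tumors among themselves. Fads2 had normalized counts of 392, 254, 270, 162 and 311 in CTRL, and 1565, 998 and 1279 in T1, T2 and T7 against 179 and 189 in T4 and T5. The first 3 were above every CTRL tumor, and T4 and T5 lay within the CTRL range. This gave a log2 fold change of 1.13 (SE 0.59, limma adjusted p = 0.35), 1.55 without T4 (adjusted p = 0.0865) and 1.60 by DESeq2 (adjusted p = 0.0422). The log2 ratio of Fads1 to Fads2 was 4.38 ± 0.58 (SD, n = 5) in CTRL and 2.696 ± 1.16 in D30, with an exact permutation p of 0.0238 and a Benjamini-Hochberg adjusted p of 0.0635. Of the summed level per kb of the 3 Fads genes, Fads1 held 45.4% ± 2.73 in CTRL and 28.3% ± 4.72 in D30, and the ranges of 41.1% to 48.6% and 20.4% to 33.1% did not overlap.

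Chain elongation uses the Elovl condensing enzymes, the dehydratases Hacd1 to Hacd3 and the reductase Tecr. None of the 10 genes of this step passed the test, 9 had a log2 fold change below 0, and the median was -0.19. Tecr was the most abundant at 3644 ± 283 normalized counts per kb in CTRL and 3217 ± 950 in D30 (SD, n = 5), and its value of 3574 normalized counts in T4 lay far below the 7145 to 8917 of the other D30 tumors (log2 fold change -0.24, SE 0.24, limma adjusted p = 0.65). The smallest p belonged to Elovl2, which acts on polyunsaturated chains, at the edge of detection. It had 2, 11, 0, 2 and 4 reads in the CTRL tumors and 0 reads in every D30 tumor, where a count of 0 still allows 3 reads (limma adjusted p = 0.15). No fold is given for it, since the CTRL reads were few and N4 also had none. Elovl4, which makes very long chains, was at 0 in 2 CTRL and 3 D30 tumors and had 14 reads in T5 at most.

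The abundant elongases did not pass the test. Elovl5, Elovl1 and Elovl7 stood at 1038 ± 97.9, 712 ± 128 and 495 ± 95.1 normalized counts per kb in CTRL (SD, n = 5), with log2 fold changes of -0.21, -0.40 and -0.07 and limma adjusted p of 0.58, 0.64 and 0.92. Elovl1 had 560 and 967 normalized counts in T4 and T5, below the CTRL range of 1397 to 2311. In T1, T2 and T7 it had 2371, 2241 and 2269. Elovl6, which lengthens palmitate to stearate, showed the same division of D30 tumors as Fads2. It had 2586, 1964 and 1810 normalized counts in T1, T2 and T7, above the CTRL range of 1092 to 1711, and 754 and 382 in T4 and T5, below it. Its log2 fold change was -0.16 (SE 0.44, limma adjusted p = 0.89), and the ratio of Elovl6 to Elovl5 ranged from -2.97 to -0.25 on the log2 scale in D30 against -1.79 to -1.21 in CTRL. The 3 Hacd genes had log2 fold changes of -0.03, -0.12 and -0.32, with limma adjusted p from 0.56 to 0.96.

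**Figure D2:**
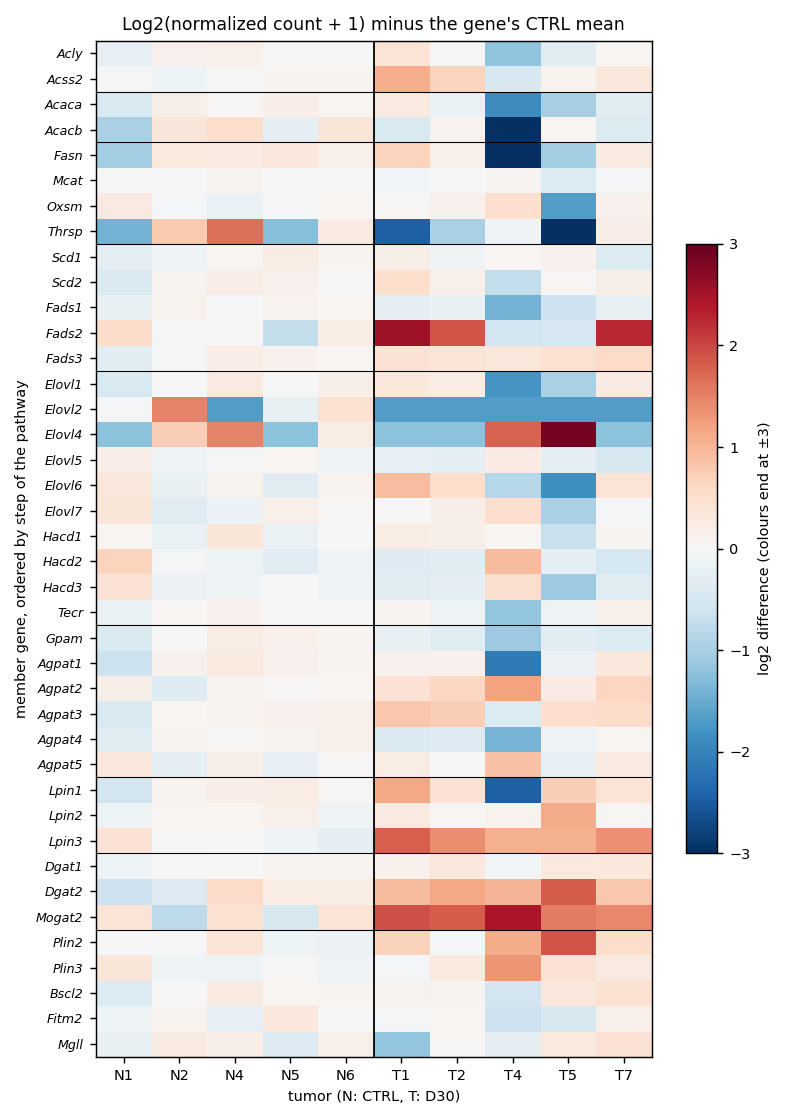
Log2(normalized count + 1) of each gene in each tumor minus the mean of the gene in CTRL tumors, with genes in the order of the pathway and CTRL (N) and D30 (T) tumors on either side of the vertical line; colours end at a difference of 3 in either direction. Lpin3, Dgat2 and Mogat2 are red in all 5 D30 tumors, while Fasn, Acaca, Tecr and Agpat1 are bluest in T4, and Fads2 and Elovl6 are red in T1, T2 and T7.

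The first acyl chains are placed on glycerol 3-phosphate by Gpam, the mitochondrial acyltransferase, and on lysophosphatidic acid by the Agpat enzymes. Of these 6 genes, 3 were above and 3 below 0, and none passed the test. Agpat2, mutated in an inherited lipodystrophy in humans, came closest. Agpat2 had normalized counts of 1820, 1239, 1719, 1663 and 1680 in CTRL and 2188, 2495, 3742, 1897 and 2530 in D30, so that every D30 tumor was above every CTRL tumor. Its log2 fold change was 0.64 (SE 0.20, limma adjusted p = 0.127), and DESeq2 gave an adjusted p of 0.0379. Agpat2 shares exon sequence with Egfl7, an endothelial gene on the other strand. Agpat3 had a log2 fold change of 0.44 (SE 0.24, limma adjusted p = 0.37), which became 0.65 with an adjusted p of 0.0291 without T4.

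Gpam and the remaining Agpat genes did not pass either. Gpam had 923 to 1476 normalized counts in CTRL and 590 to 1081 in D30 (log2 fold change -0.49, SE 0.21, limma adjusted p = 0.26). Agpat4 had 2007 to 2851 and 967 to 2668 (log2 fold change -0.47, SE 0.25, limma adjusted p = 0.37). Agpat1 was the most abundant of the step in CTRL, at 1169 ± 253 normalized counts per kb, and stood at 1035 ± 457 in D30, where Agpat2 was at 1207 ± 330 (SD, n = 5). It had 784 normalized counts in T4 against 3012 to 4241 in the other D30 tumors. Its log2 fold change was -0.35 (SE 0.40, limma adjusted p = 0.71), or 0.09 without T4. Agpat2 accounted for 23.9% ± 5.08 of the summed level per kb of the 5 Agpat genes in CTRL and 36.4% ± 15.2 in D30 (SD, n = 5), with a range of 18.4% to 32.3% in CTRL and of 28.1% to 63.4% in D30, the last value being that of T4.

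Lipins remove the phosphate from phosphatidic acid and so supply diacylglycerol. Lpin3 (ENSMUSG00000027412, chr2:160880670-160906002, plus strand, GRCm38) rose in every D30 tumor. Its normalized counts were 367, 257, 270, 247 and 225 in CTRL and 938, 707, 568, 568 and 701 in D30. The lowest D30 tumor was above the highest CTRL tumor, N1, and the log2 fold change was 1.34 (SE 0.22, limma adjusted p = 0.0066). It passed the test whichever tumor was left out, with log2 fold changes of 1.23 to 1.45 and adjusted p of 0.00185 to 0.029. The other lipins did not pass. Lpin2, the most abundant at 157 ± 13.1 normalized counts per kb in CTRL and 203 ± 76.2 in D30 (SD, n = 5), had 1967 to 2315 normalized counts in 4 D30 tumors and 4137 in T5 (log2 fold change 0.31, SE 0.22, limma adjusted p = 0.50). Lpin1 had 308 to 525 in CTRL and 598 to 1018 in T1, T2, T5 and T7 but 82.1 in T4, which left a log2 fold change of 0.06 (SE 0.54, limma adjusted p = 0.97). Without T4 it was 0.68 (adjusted p = 0.0833). The share of Lpin3 in the summed lipin level per kb was 26.6% ± 5.58 in CTRL and 42.4% ± 8.62 in D30 (SD, n = 5), and the ranges of 22.7% to 36.4% and 27.0% to 46.6% overlapped.

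The bases before the annotated starts of Lpin3 are shown because it passed the test and is in the RefSeq promoter table (GRCm38.p6), and those before Fasn because it is the central synthase and did not pass the test. The Lpin3 stretches are chr2:160880420-160880669 and chr2:160887918-160888107 on the plus strand, before the start of the longest transcript and before the first exon of the shorter ones, and the Fasn stretch is chr11:120824548-120824797 on the minus strand. Capitals mark matches to 4 motifs searched on both strands: the sterol regulatory element TCACNCCAC, the E-box CACGTG, the CCAAT box CCAAT and the GC box GGGCGG.
Lpin3, first start: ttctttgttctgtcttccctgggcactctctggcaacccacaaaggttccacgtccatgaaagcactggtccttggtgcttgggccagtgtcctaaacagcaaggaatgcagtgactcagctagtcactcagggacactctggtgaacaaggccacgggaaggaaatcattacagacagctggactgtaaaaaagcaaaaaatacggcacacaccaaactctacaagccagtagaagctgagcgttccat
Lpin3, second start: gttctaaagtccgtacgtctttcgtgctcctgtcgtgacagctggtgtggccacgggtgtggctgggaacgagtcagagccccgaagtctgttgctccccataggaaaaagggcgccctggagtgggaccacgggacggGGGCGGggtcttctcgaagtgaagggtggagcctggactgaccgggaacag
Fasn: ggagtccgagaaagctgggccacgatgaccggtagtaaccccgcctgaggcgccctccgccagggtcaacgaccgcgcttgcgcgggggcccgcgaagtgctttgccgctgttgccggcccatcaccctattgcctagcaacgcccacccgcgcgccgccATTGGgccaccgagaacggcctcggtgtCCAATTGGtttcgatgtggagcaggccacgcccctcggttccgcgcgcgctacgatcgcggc
The second Lpin3 stretch held 1 GC box, the first held none of the motifs, and the Fasn stretch held 3 overlapping or neighbouring CCAAT boxes. Of the 40 members, 32 were in the table, with 44 windows. Over the 250 bases before the start the CCAAT box was found in 16 of these windows, the GC box in 25, the E-box in 4 and the sterol regulatory element in 0. Among all 32851 windows of the table the shares with each motif were 33.8%, 32.7%, 6.02% and 1.05%. These are matches of letters only, and members with several starts have several windows.

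The last step adds an acyl chain to diacylglycerol through Dgat1 or Dgat2, and Mogat2 makes diacylglycerol from monoacylglycerol. Mogat2 (ENSMUSG00000052396, chr7:99219084-99238619, minus strand, GRCm38) had the largest rise of the 40 members. Its normalized counts were 608, 273, 644, 337 and 626 in CTRL and 1790, 1664, 2518, 1362 and 1277 in D30. The groups were far apart, with the lowest D30 tumor, T7, above the highest CTRL tumor, N4. The log2 fold change was 1.83 (SE 0.29, limma adjusted p = 0.00545), and it passed whichever tumor was left out, at 1.64 to 1.95 with adjusted p of 0.00292 to 0.0194. Mogat2 shares exon sequence with Gm45012 on the other strand, which had a mean of 5.73 ± 2.09 normalized counts in CTRL and 8.10 ± 3.21 in D30 (SD, n = 5).

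Dgat2 (ENSMUSG00000030747, chr7:99153658-99182719, minus strand, GRCm38) rose as well, with less certainty. Its normalized counts were 691, 818, 1582, 1256 and 1239 in CTRL and 2065, 2396, 2152, 3782 and 1882 in D30. The groups did not overlap, T5 was the highest, and N4, the tumor with the highest adipocyte markers, was the highest of the CTRL tumors. The log2 fold change was 1.15 (SE 0.26, limma adjusted p = 0.034). The adjusted p stayed under 0.05 only without N4 (0.0315) or without T4 (0.0182), and was 0.0508 to 0.113 when any other tumor was left out, the highest without N2. Scaling by library size alone gave 0.93 with an adjusted p of 0.0724. Dgat1 did not pass, at 1377 to 1636 normalized counts in CTRL and 1446 to 1928 in D30 (log2 fold change 0.19, SE 0.16, limma adjusted p = 0.58).

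**Figure D3:**
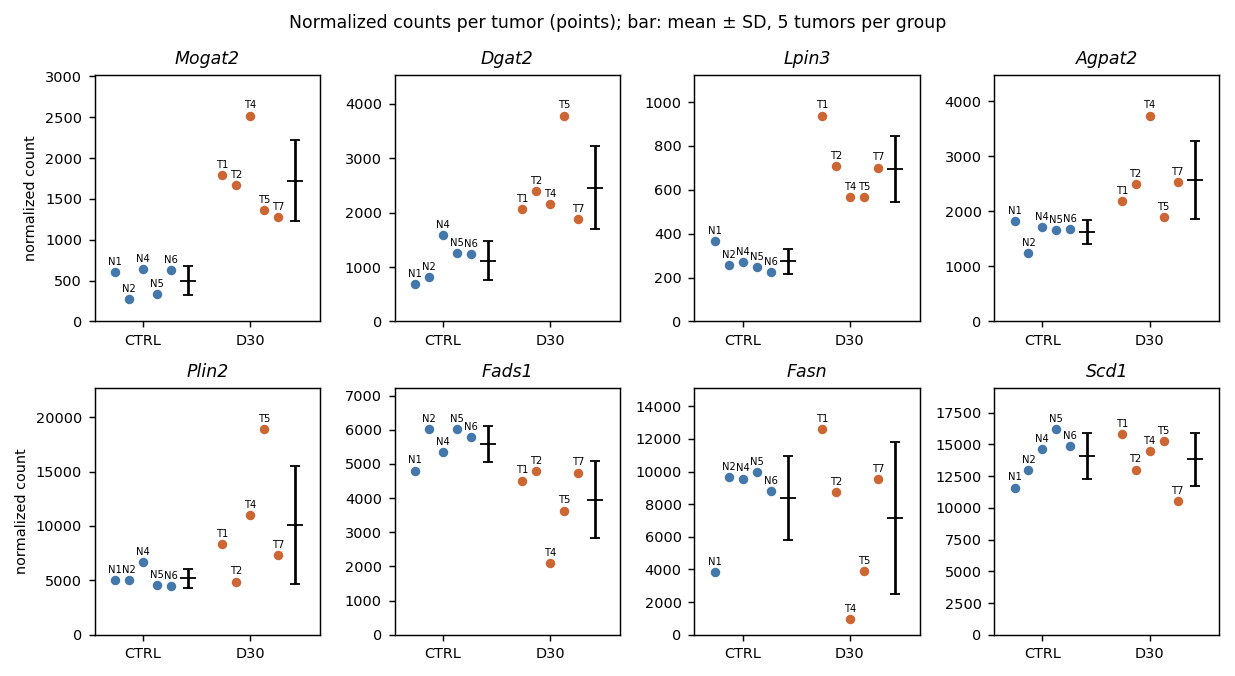
Normalized counts (vertical axes, starting at 0) of 8 members in each tumor, with the mean and SD of 5 CTRL and 5 D30 tumors beside the points. For Mogat2, Dgat2, Lpin3 and Agpat2 every D30 tumor lies above every CTRL tumor and for Fads1 every D30 tumor lies below, while Plin2, Fasn and Scd1 overlap between the groups.

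The order of the 3 genes by level was not the same in both groups. Per kb of exon, Dgat1 was the highest in CTRL at 504 ± 33.8, followed by Dgat2 at 362 ± 117 and Mogat2 at 271 ± 96.9 (SD, n = 5). In D30 Mogat2 stood at 939 ± 268, Dgat2 at 796 ± 248 and Dgat1 at 578 ± 67.8, and Mogat2 and Dgat2 were within an SD of each other. As shares of their sum, Dgat1 went from 45.1% ± 6.55 to 25.4% ± 5.08, with ranges of 36.9% to 54.6% and 18.6% to 32.5% that did not overlap. Mogat2 went from 23.6% ± 7.18 to 40.5% ± 9.44, with overlapping ranges. The log2 ratio of Dgat2 to Dgat1 was -0.52 ± 0.42 in CTRL and 0.44 ± 0.39 in D30 (SD, n = 5), with 1 CTRL tumor, N4, above the lowest D30 tumor. Its exact permutation p was 0.0159 and the Benjamini-Hochberg adjusted p over 8 ratios was 0.0635.

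Mogat2 and Dgat2 are neighbours on chromosome 7, on the same strand and 36.37 kb apart. Within 250 kb of Mogat2 there were 11 other tested genes, of which 1, Dgat2, was called, and their median log2 fold change was -0.14. The gene on the far side of Dgat2, Uvrag, which functions in autophagy, had 773 ± 67.8 normalized counts in CTRL and 743 ± 60.2 in D30 (SD, n = 5). On the other side Map6 had 935 ± 195 and 832 ± 438, and Serpinh1, a collagen chaperone, 6351 ± 1124 and 5313 ± 832. The ribosomal protein gene Rps3 had a log2 fold change of 1.07 that did not pass (SE 0.38, limma adjusted p = 0.17). Around Lpin3 the 8 other tested genes within 250 kb had a median log2 fold change of -0.78, and 0 were called.

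**Figure D4:**
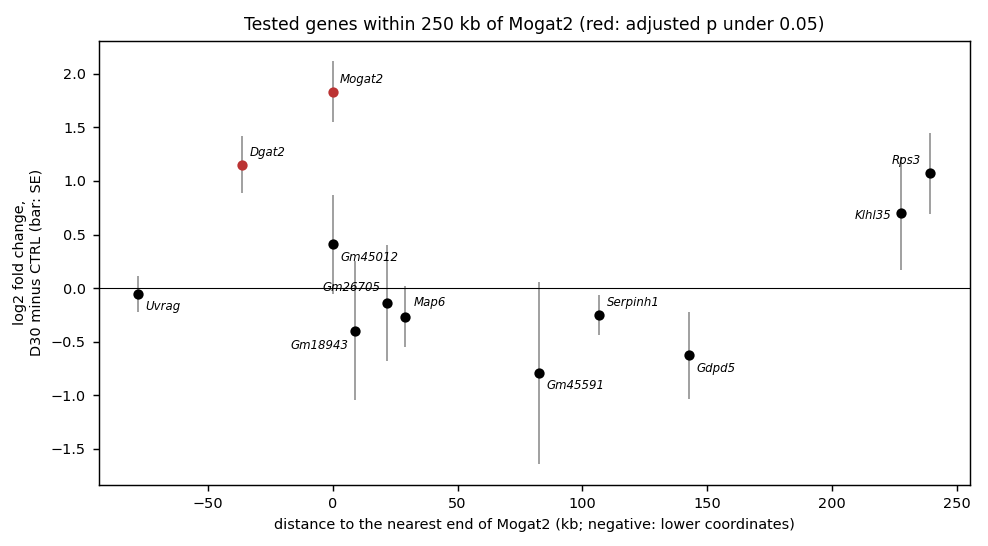
Log2 fold change (vertical axis, D30 minus CTRL, bars show the standard error) of tested genes within 250 kb of Mogat2, by distance in kb to its nearest end, with negative distances toward lower coordinates. Dgat2, 36.37 kb toward lower coordinates, and Mogat2 itself are the only genes in red, with adjusted p under 0.05. The other genes between Dgat2 and 150 kb on the right lie near or below 0 except Gm45012.

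Of the genes for the droplet itself, Plin2 and Plin3 encode coat proteins, Bscl2 (seipin) and Fitm2 serve droplet formation, and Mgll cleaves monoacylglycerol. None of the 5 passed the test. Plin2, whose protein is stable only when bound to droplets, had normalized counts of 5041, 5048, 6702, 4579 and 4499 in CTRL and 8330, 4888, 10998, 18915 and 7324 in D30. T1, T4, T5 and T7 were above every CTRL tumor and T2 lay within the CTRL range, with the highest value in T5. The log2 fold change was 0.83 (SE 0.30, limma adjusted p = 0.176), or 0.56 without T5 (adjusted p = 0.24), and DESeq2 gave an adjusted p of 0.0487. Plin2 was the most abundant gene of this step, at 1473 ± 254 normalized counts per kb in CTRL and 2873 ± 1537 in D30 (SD, n = 5). Plin3 had 4801 to 6948 normalized counts in CTRL and 5231 to 13381 in D30, the last in T4 (log2 fold change 0.45, SE 0.24, limma adjusted p = 0.36). Bscl2, Fitm2 and Mgll had log2 fold changes of 0.09, -0.18 and -0.14, with limma adjusted p from 0.70 to 0.89.

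**Figure D5:**
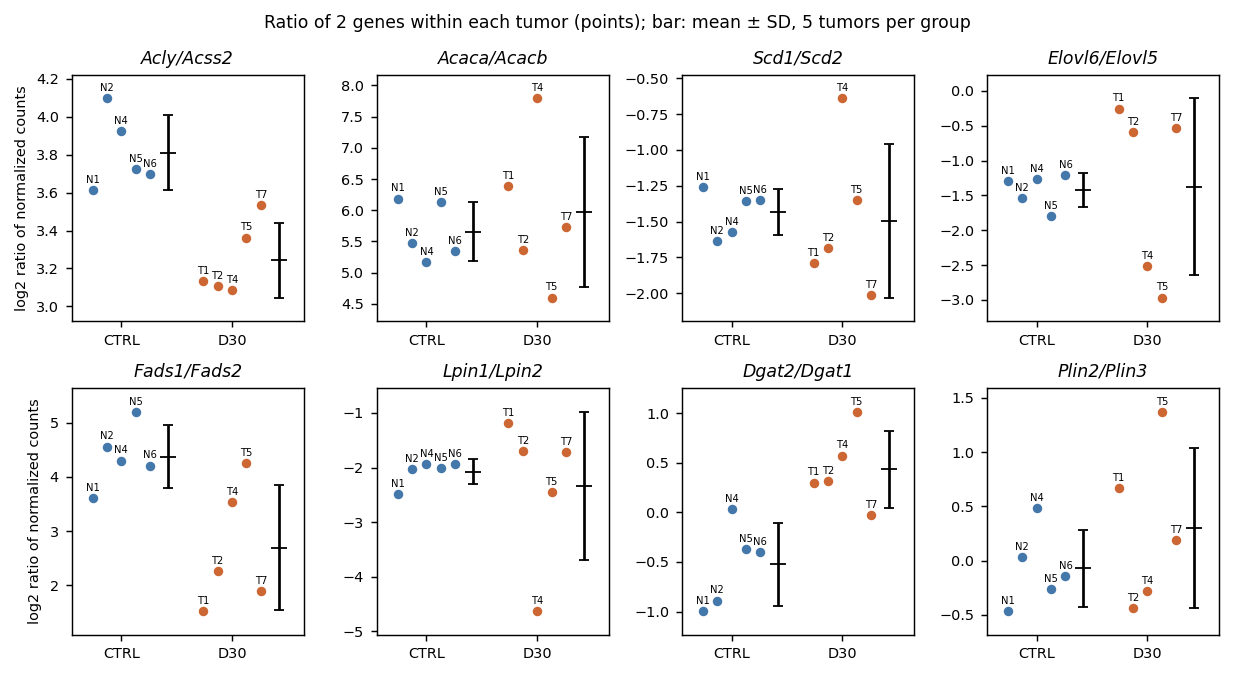
Log2 ratio of 8 pairs of genes with related functions in each tumor (vertical axes, each with its own range), with the mean and SD of 5 CTRL and 5 D30 tumors. The groups do not overlap for Acly/Acss2, and for Fads1/Fads2 and Dgat2/Dgat1 the means are further apart than the SD of either group, while T4 or T5 lies far from the other D30 tumors in Acaca/Acacb, Scd1/Scd2, Elovl6/Elovl5 and Lpin1/Lpin2.

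Of the 8 ratios 0 passed after adjustment over the 8 exact permutation tests. A single ratio could not have passed on its own, since the smallest exact p with 5 tumors against 5 is 0.00794. Beside the Acly/Acss2, Fads1/Fads2 and Dgat2/Dgat1 ratios, which had unadjusted p under 0.05, the other 5 had adjusted p of 0.683 to 0.944. The D30 tumors spread widely in Elovl6/Elovl5 and Lpin1/Lpin2, with an SD of 1.26 and 1.36 on the log2 scale against 0.24 and 0.23 in CTRL.

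Other genes of the pathway, 56 regulators, suppliers, isoenzymes, droplet proteins and lipases, were read from the same fit. Of the 52 that were expressed enough to be tested, 32 had a log2 fold change above 0 and 20 below, with a median of 0.16, and 1 passed: Soat2, which esterifies cholesterol for storage in droplets. This 1 call among 52 stands beside the 1.4% of all 24560 genes tested that passed as higher, so it is near that share. Soat2 had normalized counts of 912, 1021, 908, 1091 and 1117 in CTRL and 1459, 1707, 2488, 2382 and 1619 in D30, without overlap. Its log2 fold change was 0.91 (SE 0.19, limma adjusted p = 0.0253), and the adjusted p was above 0.05 when any of the CTRL tumors was left out (0.0617 to 0.0814) and with library size scaling (0.0526). The other initiating acyltransferases had log2 fold changes of opposite sign. Gpat3 had 263 to 331 normalized counts in CTRL and 403 to 903 in D30 (log2 fold change 0.96, SE 0.26, limma adjusted p = 0.071), and Gpat4 had 6332 to 7697 in CTRL and 3782 to 5768 in D30 (log2 fold change -0.61, SE 0.17, limma adjusted p = 0.0786). Neither pair of groups overlapped and neither gene passed, while both passed in other fits. Gpat3 had an adjusted p of 0.0453 by edgeR with TMM and 0.00424 by DESeq2. Gpat4 had one of 0.00791 by DESeq2, 0.0405 with library size scaling and 0.0424 without T4. Gpat3 shares exon sequence with Gm42987 on the same strand. Hilpda, a droplet protein induced by hypoxia that inhibits lipolysis, had 962 to 2050 normalized counts in CTRL and 2577, 2094, 8819, 23829 and 3416 in D30 (log2 fold change 1.92, SE 0.55, limma adjusted p = 0.0863, edgeR adjusted p = 0.044). Like Plin2, it was highest in T5 and next highest in T4.

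The transcription factors that govern lipogenesis did not pass. Srebf1, which encodes SREBP-1, had 3416, 5537, 7018, 6639 and 5722 normalized counts in CTRL and 7785, 7624, 3052, 8871 and 7649 in D30. The D30 tumors other than T4 were above every CTRL tumor and T4 was below all of them (log2 fold change 0.26, SE 0.30, limma adjusted p = 0.71, or 0.53 and 0.122 without T4). Mlxipl, which encodes ChREBP, was low, at 10.5 to 50.3 normalized counts in CTRL and 1.16 to 30.9 in D30 (log2 fold change -1.50, SE 0.70, limma adjusted p = 0.30). Pparg had 2164 to 3092 and 2209 to 4246 (log2 fold change 0.41, SE 0.21, limma adjusted p = 0.33). Insig1, which retains SREBP in the endoplasmic reticulum and is itself an SREBP target, is named after its values were seen: it had 1272 to 2527 normalized counts in CTRL and 2506 to 5344 in D30 (log2 fold change 0.94, SE 0.24, limma adjusted p = 0.059), or 0.77 with an adjusted p of 0.0354 without T4.

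Across the 10 tumors, the levels of Acly, Acaca, Fasn, Scd1, Elovl6 and Thrsp were set against Srebf1 and against the mean of the adipocyte markers, 12 relations in all. None passed after Benjamini-Hochberg adjustment of the permutation p. Fasn and Srebf1 had the highest Pearson's r at 0.71 (permutation p = 0.0314, adjusted p = 0.207) with a Spearman's rho of 0.36 (permutation p = 0.32, adjusted p = 0.63). Without N1 and T4, the tumors farthest from the median of Srebf1, r was -0.46, so the relation rested on these tumors. Thrsp and the adipocyte markers had an r of 0.54 (permutation p = 0.13, adjusted p = 0.40) and a rho of 0.25 (permutation p = 0.49, adjusted p = 0.66), and r was -0.10 without N4 and T7.

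Fat cells are rich in many of these enzymes. Of the 9 markers 0 passed the test, and their summed normalized counts were 3138 to 4164 in 4 CTRL tumors, 8264 in N4 and 2603 to 6258 in D30, with the highest D30 value in T4. Cidec made up a large part of these sums in most tumors. It had 1542 to 2289 normalized counts in CTRL and 1807 to 2302 in D30, also where Adipoq was at or near 0. The sum is therefore not a measure of fat cells alone. Adipoq, the defining secreted product of fat cells, had 271 normalized counts in N4 and 0 to 7.46 in the other tumors, and Lep, Plin1 and Pck1 were at 0 in at least 5 tumors each. Lpl, the lipoprotein lipase of fat cells and macrophages, was highest in T4, at 2957 normalized counts. Without N4 the adjusted p of Mogat2, Lpin3 and Dgat2 was 0.00941, 0.0183 and 0.0315. The part of fat cells in these results was not tested.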

How the data were processed

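RNA sequencing of 10 KPC K8484 orthotopic tumors was compared between CTRL (n = 5) and D30 (n = 5). The authors trimmed reads with Trim Galore, aligned them with STAR (2.7.0e) and used DESeq2. The submitters' processing notes name GRCm39, whereas the methods name hg38, the study's list of software also names RSEM without a role, and the counting settings are not given in the sources used here. The authors deposited a normalized signal per gene and tumor, that is, reads divided by a size factor. All values were whole multiples of a step per column, and 100.0% gave a whole number of reads to within 0.01. N columns were taken as CTRL by their letter and T columns as D30, the only other group. Names and positions came from GENCODE M21 (GRCm38), which named 52083 of 55359 genes (94.1%), and promoter sequences from RefSeq (GRCm38.p6). Beside the members noted in the text, Mcat, Oxsm, Scd2, Elovl1, Elovl6, Hacd2, Agpat1, Agpat3, Agpat5, Bscl2, Fitm2 and Mgll also share exon sequence with another annotated gene, whose reads could be split differently by the counting.

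Deposited values were tested as log2(normalized count + 1) with limma 3.58.1 (R 4.3.3) and a mean-variance trend, over 24560 genes with a mean of at least 1, with Benjamini-Hochberg adjustment over all of them and a call at an adjusted p under 0.05. The alternatives were edgeR 4.0.16 and DESeq2 1.42.0 on the recovered reads, other pseudocounts, filters and scalings and leaving out each tumor. For ratios the test was an exact, two-sided permutation of the group labels, and for relations across tumors a permutation test of 100000 resamples. A count of 0 was taken to allow 3 reads.

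The members, the list of other pathway genes and the marker lists were chosen with earlier results of these data known. Values in every tumor are given for members that passed, members whose groups did not overlap and the member with the smallest p of each step, the most abundant member of each step is named with its level, and Soat2, Gpat3, Gpat4, Hilpda, Srebf1, Mlxipl and Pparg are named among the other genes. Fads2, Elovl6, Scd1, Agpat3, Lpin1 and Insig1 were described more fully after their values were seen. Of the other pathway genes, Elovl3, Olah, Gpat2 and Pnpla3 were too low to be tested.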

Additional observations from a re-analysis of the deposited data

Results flagged for a closer look

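Some members had a tumor far from the others of its group by Dixon's test at the 95% level. The test was applied to 50 groups of 5 tumors, of which chance gives about 1 in 20. These were the groups of 17 of the members and of the gene ratios. The counts of the other members were not put to it. In the groups tested, 9 values lay far from the others. In CTRL, N1 was low in Acaca (1298 normalized counts against 1807 to 2047), in Fasn (3858 against 8808 to 9954), in Agpat1 (2203 against 3650 to 4199) and in the log2 ratio of Lpin1 to Lpin2 (-2.485 against -2.03 to -1.935). N2 was low in Agpat2 (1239 against 1663 to 1820), and N4, the tumor with the highest adipocyte markers, was high in Plin2 (6702 against 4499 to 5048). In D30, T4 was low in Tecr (3574 against 7145 to 8917) and in Agpat1 (784.2 against 3012 to 4241), and T5 was high in Lpin2 (4137 against 1967 to 2315). Among members not put to the test, N1 and T4 lay apart in both directions. T4 was high in Hacd2 (2080 against 751 to 877) and Plin3 (13381 against 5231 to 7314). It was low in Gpam (590 against 943 to 1081). N1 was high in Hacd2 (1703 against 848 to 1025) and Hacd3 (2965 against 1932 to 2162). It was low in Agpat3 (1302 against 1866 to 1977). N1 and T4 are also the tumors in which gene values fell with the GC content of the transcript, and the part of that property in these values was not tested.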

How the results depend on the processing

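The count of 3 members called was 3 under pseudocounts of 0.5 and 5, with no filter, with a mean of at least 10, with upper quartile scaling and with edgeR under either normalization, 2 with library size scaling, where Dgat2 was lost, and 7 with DESeq2 (Fads2, Fads3, Agpat2, Lpin3, Dgat2, Mogat2 and Plin2). Leaving out each tumor gave 2 to 4, the 4 without T4, where Agpat3 was added and the calls over all genes were 1573 instead of 678. The count of 6 members without overlap was 6 to 13, the highest without T4. Over all genes tested the shares without overlap also rose without T4, from 2.87% to 5.71% higher and from 3.32% to 6.42% lower in D30. The median of the members was -0.30 with library size scaling, where the median of all genes moved from -0.06 to -0.27, and -0.10 to -0.003 when a tumor was left out. The count of other pathway genes called was 1, 4 with edgeR under either normalization (Gpat3, Soat2, Cideb and Hilpda), 7 with DESeq2 (6 higher, and Gpat4 lower) and 0 to 6 when a tumor was left out: 0 without N2, N4, N5 or N6, 2 without T5 and 6 without T4 (5 higher, and Gpat4 lower). The 1 gene called was Gpat4, lower, with library size scaling and Insig1 without N1, in place of Soat2. Over all genes tested, the share called higher was 1.4% with limma, 2.67% with edgeR under TMM and 5.08% with DESeq2. Without T4 it was 3.32% with limma. The log2 ratios with an adjusted p under 0.05 in any setting were Acly/Acss2, at -0.60 without T5 (range -0.64 to -0.50), and Fads1/Fads2, at -2.07 without T5 (range -2.07 to -1.39), both with an adjusted p of 0.0317. The cause of these shifts was not tested. No result had its direction reversed as a call. For single named genes, 421 values kept their side of the threshold, 15 lost and 12 gained the call.

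No paired analysis was possible because the numbers in the column names are not those of the labelled replicates, and no column was matched to a numbered animal. With 5 tumors per group and a wide spread in D30, the log2 fold changes of Fasn and Fads2 had a standard error near 0.6 and did not pass limma. Fads2 was called by DESeq2, with an adjusted p of 0.0422. Elovl2, Elovl4 and Thrsp rest on few reads.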
